A study of Mus musculus with 9 samples.

Results

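Gene expression was compared between submandibular salivary glands taken 3 days after part of the gland had been removed and glands taken 3 days after mock surgery. The comparison uses 6 of the 9 arrays of the study, chosen by their titles: 3 arrays of resected glands and 3 of mock-operated glands, all from female C57BL6/J mice aged 12 weeks. Every mouse was operated on, so surgery and 3 days of healing are common to both groups. The labels do not say what the mock operation did to the gland, so the loss of tissue and the wounding of the gland cannot be told apart. The remaining 3 arrays are of glands taken 14 days after resection in mice of the same strain, sex and age. They enter the estimate of the spread, the choice among several transcript clusters of a list gene, and most alternative settings. The labels call the arrays biological replicates and do not say which piece of the resected gland was taken. They are named here by group and replicate number, such as mock 2 or resected 3.

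The mouse submandibular gland makes saliva in serous acini and modifies it along a branching duct system. In rodents a stretch of this system, the granular convoluted tubule, stores growth factors and serine proteases of the kallikrein family in large granules, and it is smaller in females than in males because androgens drive its growth. Wounded tissue goes through a sequence in which resident and incoming leukocytes clear debris, fibroblasts lay down provisional matrix and surviving cells divide.

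The arrays were Clariom S mouse arrays, which report 1 value per transcript cluster, the set of transcripts of a gene. The values are on the log2 scale, so that a difference of 1 stands for a doubling on the deposited scale. Of 22206 transcript clusters tested, 19572 carried a gene symbol. Array medians lay between 5.09 and 5.24, and the correlation between mock arrays was 0.985 to 0.987 and between resected arrays 0.988 to 0.990. The median of 5222 negative control rows, which give the background, was 4.46 ± 0.06 (SD, n = 3) on mock and 4.70 ± 0.06 on resected arrays (exact permutation test, two-sided p = 0.1, the smallest that 3 arrays against 3 allow), and its part in the results was not tested. Values near 4.5 are therefore close to background, and the size of a difference from a group at or below it is not exact. At the top, 18 transcript clusters stood at the maximum of 19.93 throughout, where no change can be seen. Among them were the acinar products Prol1, Pip and Car6, so the defining secretory genes of the labelled tissue were present in both groups. In whole tissue, fewer cells of a type and less RNA per cell cannot be told apart.

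Resected glands differed from mock glands in 1393 transcript clusters, or 6.27% of those tested (limma, Benjamini-Hochberg adjusted p under 0.05). Of these, 1092 were higher (4.92% of all tested) and 301 lower (1.36%). The rising genes had a median change of 1.60 and started from a modest level, with a median of 6.61 on the mock arrays. The falling genes moved less, with a median of -1.09, and came from well expressed genes, with a median mock level of 9.61 against 5.13 over all transcript clusters. Changes of at least 4 on the log2 scale were seen for 34 rising and 1 falling transcript clusters, and changes of at least 2 for 364 rising and 12 falling ones. Over all transcript clusters the median difference was -0.065.

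**Figure D1:**
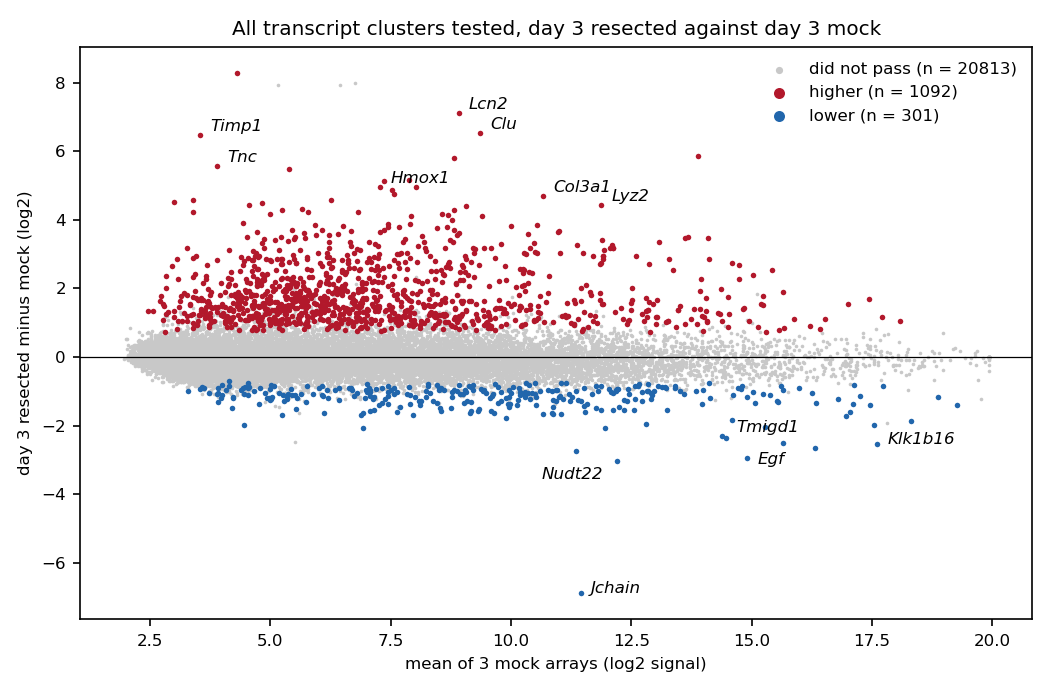
Each point is 1 of 22206 transcript clusters, placed by its mean log2 signal on the 3 mock arrays (horizontal) and its log2 difference between resected and mock glands on day 3 (vertical). Red points (1092) were higher and blue points (301) lower at an adjusted p under 0.05, and grey points did not pass. The red cloud rises from low and middle signals, and most blue points lie within 2 units of 0.

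A smaller share of the falling than of the rising calls was kept. When any 1 array was left out, 660 rising genes (60.4%) and 70 falling genes (23.3%) kept their call in all 6 such fits. Without resected 3 there were 744 higher and 106 lower calls, and without resected 2 there were 792 and 188. The balance of directions also moved with scaling, from 78.4% higher to 68.3% after quantile normalisation (973 higher, 452 lower) and 67.8% after median centring (1013 higher, 480 lower). No overlap between the 2 groups was seen for 11.2% of transcript clusters in the higher direction and 11.8% in the lower direction.

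**Figure D2:**
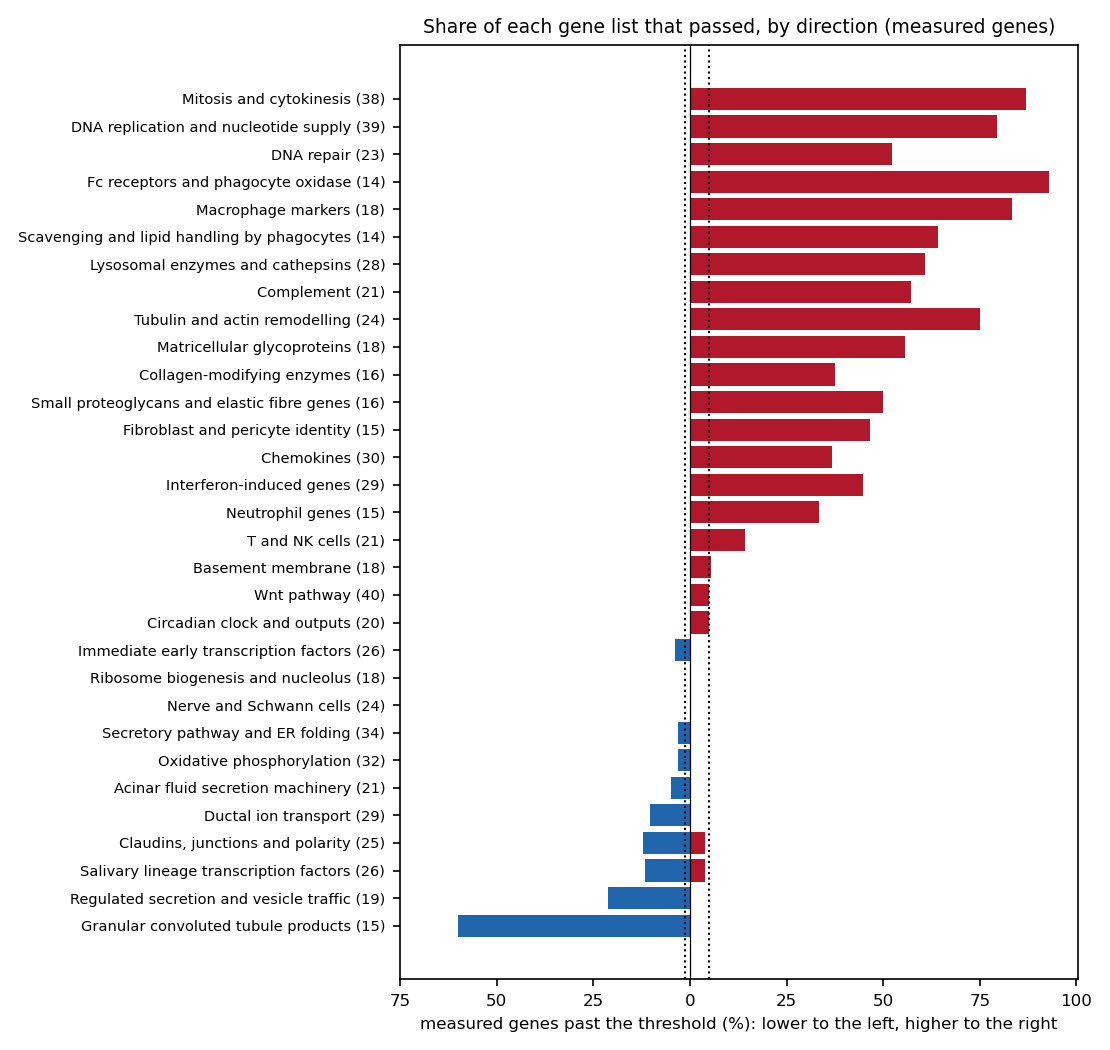
Bars give, for each gene list, the percentage of its measured genes (number in parentheses) that passed an adjusted p of 0.05, to the right where they were higher and to the left where they were lower in resected glands. Dotted lines mark the shares over all transcript clusters, 4.92% higher and 1.36% lower. Lists of cell division, phagocytes and cytoskeleton lie far to the right, and the granular tubule list, with 9 of 15 genes, lies farthest to the left.

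Genes of cell division were higher in resected glands through nearly every step of the cycle. Of 39 genes of DNA replication and nucleotide supply, 31 rose and 0 fell, with a median difference of 2.17. Of 38 genes of mitosis and cytokinesis, 33 rose and 0 fell, with a median of 2.31. The promoters of these groups differ in their short sequence motifs, whose part in these changes was not tested. Genes of mitosis commonly carry the boxes CCAAT, the site of the factor NF-Y, and TTTGAA, the core of the cell cycle homology region, whereas genes of replication commonly carry E2F sites such as TTTGGCGC or TTTCGCGC. The windows below are the 100 bases before the RefSeq start site (build GRCm38.p6), written 5′ to 3′ along the gene, with CCAAT and TTTGAA on either strand in capitals. Cdk1 lies on the minus strand at chr10:69352913-69353012, Cdc20 on the minus strand at chr4:118437344-118437443 and Ube2c on the plus strand at chr2:164769829-164769928. Cdc20 was chosen after its values were seen.
Cdk1: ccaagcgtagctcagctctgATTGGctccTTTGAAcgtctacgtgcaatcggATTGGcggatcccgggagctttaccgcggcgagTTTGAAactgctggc
Cdc20: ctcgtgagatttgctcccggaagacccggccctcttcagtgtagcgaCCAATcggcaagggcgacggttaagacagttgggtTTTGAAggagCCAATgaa
Ube2c: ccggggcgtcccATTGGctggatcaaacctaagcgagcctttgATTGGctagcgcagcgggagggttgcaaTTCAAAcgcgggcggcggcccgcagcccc

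Both boxes were present in 25 of 33 windows of the mitosis genes (75.8%; 31 genes matched, windows from 250 bases before to 50 after the start) against 6.95% of 32851 windows of all genes. In the replication genes both boxes were present in 3 of 36 windows (8.33%; 32 genes matched). The E2F sites showed the opposite distribution, with 9 of 36 replication windows (25%), 1 of 33 mitosis windows (3.03%) and 0.813% of all windows. CCAAT on its own was in 27 of 33 mitosis windows (81.8%), 21 of 36 replication windows (58.3%) and 37.4% of all windows, so it was not confined to the mitosis genes. For the helicase subunits Mcm5 (plus strand, chr8:75109339-75109508, 170 bases before the start) and Mcm6 (minus strand, chr1:128359706-128359835, 130 bases) capitals mark TTTGGCGC and TTTCGCGC on either strand. In each gene the long capital run is a pair of overlapping matches on opposite strands.
Mcm5: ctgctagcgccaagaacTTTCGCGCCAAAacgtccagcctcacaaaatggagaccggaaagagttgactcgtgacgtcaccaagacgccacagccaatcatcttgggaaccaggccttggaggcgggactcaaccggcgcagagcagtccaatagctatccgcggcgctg
Mcm6: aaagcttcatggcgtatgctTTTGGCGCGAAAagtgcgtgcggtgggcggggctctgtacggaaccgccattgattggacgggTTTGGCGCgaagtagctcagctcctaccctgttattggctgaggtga

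Mcm6, a subunit of the helicase that opens DNA ahead of the fork, read 8.88, 9.82 and 6.98 on the mock arrays and 12.52, 13 and 12.63 on the resected arrays. Its partner Mcm5 read 3.89, 5.25 and 4.14 and 7.87, 8.73 and 8.45. In both genes all resected arrays lay above all mock arrays, with differences of 4.16 ± 0.57 (SE; adjusted p = 0.000674) and 3.92 ± 0.36 (adjusted p = 3.52e-05). Uhrf1, which keeps DNA methylation in place at the fork, rose by 3.68 ± 0.35, and Rrm2, the regulated subunit of the enzyme that makes deoxyribonucleotides, by 3.64 ± 0.65. Gins1, part of the same helicase complex as the Mcm proteins, rose by 3.42 ± 0.55. Without any 1 array, 29 of the 31 replication genes kept their call.

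The mock arrays differed among themselves in the mitosis genes. The list's median around the mock mean was 0.84, 0.29 and -1.04 on mock 1, 2 and 3, and 1.77, 3.07 and 2.22 on resected 1, 2 and 3. Cdk1, the kinase that starts mitosis, read 6.24, 5.75 and 3.00 on mock arrays and 7.95, 10.04 and 9.51 on resected arrays, a difference of 4.17 ± 0.72 (adjusted p = 0.00335). The lowest resected value of Cdk1 was above the highest mock value, although mock 3 lay far below the other mock arrays. The proliferation antigen Mki67 rose by 3.85 ± 0.59, the ubiquitin-conjugating enzyme Ube2c of the anaphase-promoting complex by 3.78 ± 0.64, the checkpoint kinase Bub1 by 3.57 ± 0.43 and Racgap1, which acts at the cleavage furrow, by 3.38 ± 0.49. Of the 33 rising genes, 25 kept the call without any 1 array.

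Upstream of these, 8 of 21 genes of the cyclin D and E group and of its inhibitors and E2F factors rose and 0 fell (5 without mock 3 or resected 2; 1 fell without mock 1 or with a variance trend). E2f1, the activator of S phase genes, read 3.71, 3.69 and 3.69 on mock and 6.30, 6.24 and 6.55 on resected arrays and rose by 2.67 ± 0.21 from below background. Cyclin E1 (Ccne1, 2.08 ± 0.28), the late E2F repressor E2f8 (2.30 ± 0.33) and the pocket protein Rbl1 (1.92 ± 0.33) rose, and so did Cdkn1a, the p21 inhibitor of cyclin-dependent kinases. Cdkn1a read 6.51, 5.31 and 5.43 on mock and 8.27, 8.15 and 9.46 on resected arrays, with no overlap (2.87 ± 0.40, adjusted p = 0.000787). For DNA repair 12 of 23 genes rose and 0 fell (median 1.18, 9 kept). They included the checkpoint kinase Chek1 (2.99 ± 0.42), Brca1 of homologous recombination (2.88 ± 0.37), the fork protector Timeless (2.69 ± 0.30), the exonuclease Exo1 (2.47 ± 0.29) and the Fanconi anaemia protein Fanci (2.17 ± 0.33). Of 18 genes of ribosome biogenesis and the nucleolus 0 rose and 0 fell (1 higher and 0 lower at an unadjusted p under 0.05), with a median of -0.04.

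Secreted proteins of the acute phase response were among the largest rises. Lcn2, which binds the iron carriers of bacteria, read 8.96, 8.58 and 9.18 on mock arrays and 15.68, 16.47 and 15.94 on resected arrays. Clu, a secreted chaperone of damaged proteins and membranes, read 9.11, 8.93 and 10.02 and 15.98, 16.16 and 15.55. In both genes every resected array lay far above every mock array, with differences of 7.12 ± 0.35 and 6.54 ± 0.31 (adjusted p = 3.19e-07 for each). The serum amyloid Saa3 rose by 4.29 ± 0.49, the protease inhibitor Serpina3n by 3.78 ± 0.33 and the copper-carrying ferroxidase Cp by 1.87 ± 0.32. In the acute phase list, 9 of 23 genes rose and 0 fell, and the list's median was 0.30. In this list the promoter motif TTNNGNAAT, similar to sites of C/EBP factors, was present in 7 of 19 windows (36.8%) against 11.5% of all windows. TGANTCA, similar to AP-1 sites, was in 26.3% against 7.81%, and TTCNNNGAA, similar to STAT sites, in 21.1% against 8.3%. The NF-kappa-B motif was in 0 of 19 windows, but at 0.411% of all windows it is too rare for 19 windows to show a lack of it. These windows are those of measured list members, whether or not they rose. In the macrophage list TTNNGNAAT was in 21.4% and TGANTCA in 14.3% of 14 windows.

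**Figure D3:**
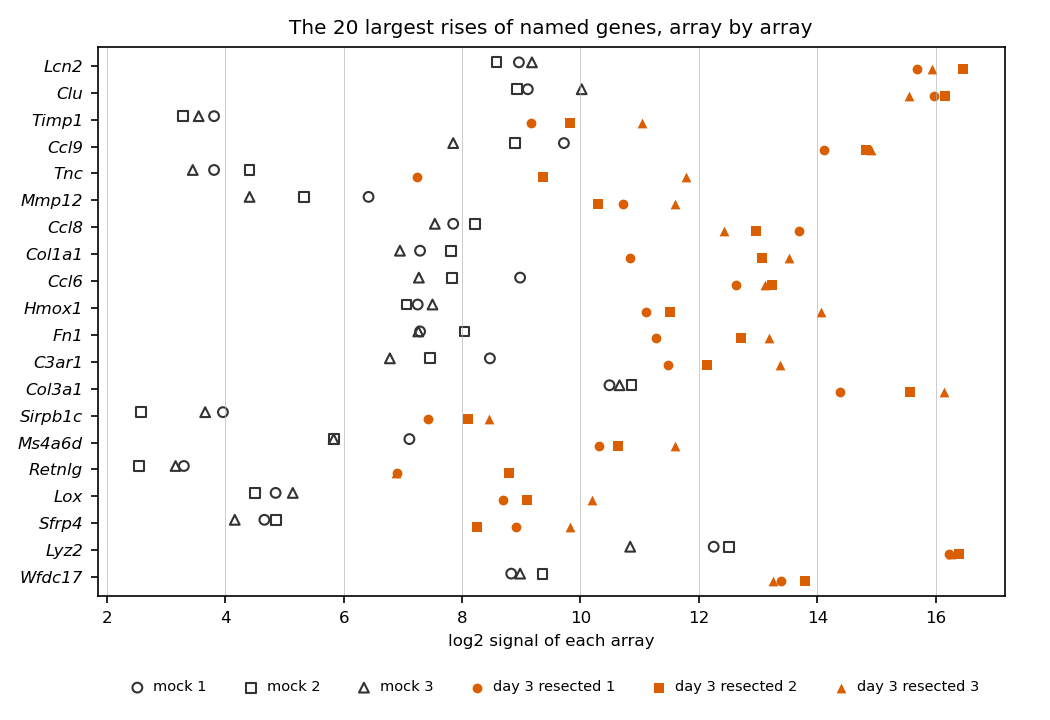
Log2 signal of each array for the 20 genes with the largest rise among genes with a symbol whose groups did not overlap. Open symbols are the 3 mock arrays and filled symbols the 3 resected arrays, with the same shape for the same replicate number. Lcn2 and Clu go from 8.58 to 10.02 on mock arrays to 15.55 to 16.47 on resected arrays, and Tnc shows the widest spread among resected arrays.

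Macrophage genes were higher in resected glands as a group. Of 18 markers measured, 15 rose and 0 fell, with a median difference of 2.51, and 13 kept the call without any 1 array. Lyz2, the lysozyme of myeloid cells, read 12.25, 12.51 and 10.84 on mock and 16.23, 16.39 and 16.26 on resected arrays. The colony-stimulating factor receptor Csf1r, on which macrophages depend, read 9.75, 9.19 and 8.10 and 11.11, 11.77 and 12.02, and the surface receptor Adgre1 (F4/80) read 6.43, 6.49 and 6.80 and 9.13, 8.84 and 9.17. In all 3 genes every resected array lay above every mock array. The integrin Itgam rose by 4.32 ± 0.31, the lipid sensor Trem2 by 3.71 ± 0.31, the monocyte chemokine receptor Ccr2 by 3.17 ± 0.35 and the scavenger receptor Msr1 by 3.11 ± 0.47.

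The machinery by which phagocytes take up and digest material moved with the markers. Of 14 genes of Fc receptors and the phagocyte oxidase, 13 rose and 0 fell (median 2.44, 11 kept). They included the antibody receptors Fcgr3 (3.81 ± 0.31), Fcgr2b (3.70 ± 0.23) and Fcgr1 (3.34 ± 0.32), their signalling chain Fcer1g (3.34 ± 0.39) and the oxidase subunit Ncf1 (3.15 ± 0.36). Of 28 lysosomal genes, 17 rose and 0 fell (median 1.05; 10 without resected 3). The lysosomal proteases Lgmn (3.68 ± 0.42), Ctss (3.11 ± 0.33) and Ctsc (2.96 ± 0.27) and the acid lipase Lipa (3.02 ± 0.37) led that list. For scavenging and lipid handling 9 of 14 genes rose and 0 fell, among them the lipid transfer protein Pltp (3.34 ± 0.34), the lipid droplet coat Plin2 (3.30 ± 0.42), the lysosome-associated glycoprotein Gpnmb (2.84 ± 0.46), the cholesterol exporter Abca1 (2.66 ± 0.32) and Apoe (2.38 ± 0.37).

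Iron and haem handling had 8 of 18 genes that rose and 0 that fell (5 without resected 2 or resected 3). Hmox1, which breaks down haem, read 7.25, 7.06 and 7.50 on mock and 11.11, 11.52 and 14.07 on resected arrays, so that resected 3 lay well above the other resected arrays and these well above mock (4.96 ± 0.56, adjusted p = 0.00018). The phagosomal metal transporter Slc11a1 rose by 3.62 ± 0.39, transferrin (Trf) by 1.66 ± 0.32 and the ferritin light chain Ftl1 by 1.41 ± 0.24.

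Complement had 12 of 21 genes that rose and 0 that fell (median 1.24, 9 kept). The 3 chains of C1q, which starts the classical pathway and is made by macrophages, rose together: C1qa by 2.64 ± 0.20, C1qb by 3.62 ± 0.27 and C1qc by 2.94 ± 0.25. C3ar1, the receptor of the C3a fragment, rose by 4.76 ± 0.47 and properdin (Cfp) by 3.45 ± 0.28. Of 21 genes of Toll-like receptors and the inflammasome, 8 rose and 0 fell (5 without mock 2 or resected 2). Rising genes included receptors that sense nucleic acids in endosomes, Tlr13 (3.36 ± 0.39), Tlr7 (2.5 ± 0.40) and Tlr8 (1.70 ± 0.23), beside Casp4 (1.69 ± 0.28) and the lipopolysaccharide co-receptor Cd14 (1.35 ± 0.22).

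Of 30 chemokines 11 rose and 0 fell, with 8 calls kept. Ccl9, Ccl6 and Ccl8 are attractants of monocytes and other leukocytes. Ccl9 read 9.72, 8.90 and 7.85 on mock and 14.12, 14.82 and 14.90 on resected arrays and rose by 5.79 ± 0.40, Ccl8 rose by 5.16 ± 0.35 and Ccl6 by 4.97 ± 0.37. Cxcl13, which attracts B cells, rose by 3.17 ± 0.39, and Ccl12, a ligand of Ccr2, by 2.74 ± 0.45. Pf4, a chemokine of platelets and some macrophages, rose by 3.87 ± 0.51 and was the only one of 6 measured platelet and red blood cell genes that passed.

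In the interleukin and TNF family list 7 of 34 rose and 0 fell, against 4.92% and 1.36% over all transcript clusters (4 without resected 3). Those that kept the call in every fit were Il1rn, the natural blocker of interleukin 1 (2.01 ± 0.28), the interleukin 10 receptor chain Il10ra (1.79 ± 0.25) and the alarmin Il33 (1.62 ± 0.25). In the list of alternative activation and Ear ribonucleases, 4 of 14 rose: the growth factors Igf1 (3.02 ± 0.27) and Tgfb1 (1.80 ± 0.24), the interleukin 4 receptor Il4ra (2.56 ± 0.40) and the chitinase-like Chil3 (1.87 ± 0.22). Interferon-induced genes had 13 of 29 that rose and 0 that fell (7 without mock 2 or resected 3), led by the DNA sensor family members Ifi204 (2.55 ± 0.31) and Ifi207 (2.16 ± 0.31), and NF-kappa-B feedback genes 4 of 16.

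Genes of other leukocytes were also among the rising ones. Neutrophil genes had 5 of 15 that rose, against 4.92% over all transcript clusters (3 without resected 2 or with only the 6 arrays compared), a list that shares Lcn2 with the acute phase list. Retnlg, a secreted product of neutrophils, read 3.30, 2.54 and 3.16 on mock and 6.90, 8.80 and 6.89 on resected arrays (4.53 ± 0.43), and S100a8 read 2.95, 3.08 and 3.15 and 4.89, 6.45 and 6.42 (2.86 ± 0.36). Both were below background on every mock array and above it on every resected array, with the lowest S100a8 value close to it, and S100a9, the partner of S100a8, did not pass (0.98 ± 0.42, adjusted p = 0.223). Mast cells had 3 of 13 that rose, against 4.92% over all transcript clusters, and the list's median was 0.13. The proteases Cpa3 (2.59 ± 0.49) and Mcpt4 (1.82 ± 0.35) kept the call in every fit without 1 array. The other rise, Tpsb2, lost it without mock 1, mock 2, mock 3, resected 1, resected 2 or resected 3 (differences 0.93 to 1.26, adjusted p 0.0523 to 0.16).

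For T and NK cells 3 of 21 genes rose (1 without mock 3, resected 2 or resected 3 or with only the 6 arrays compared), of which the interleukin 7 receptor Il7r (1.60 ± 0.32) kept the call. The T cell receptor chain Cd3e read 2.99, 3.41 and 2.85 on mock and 3.72, 4.22 and 4.43 on resected arrays, near or below background, and its rise of 1.04 ± 0.25 lost the call without mock 1, mock 3, resected 2 or resected 3 (differences 0.89 to 0.99, adjusted p 0.0859 to 0.128) and with only the 6 arrays compared (adjusted p = 0.0526). The granzyme Gzma (1.20 ± 0.31) lost it without mock 2, mock 3, resected 2 or resected 3 (differences 0.91 to 1.34, adjusted p 0.0566 to 0.177), with only the 6 arrays compared (adjusted p = 0.0674) and after quantile normalisation (adjusted p = 0.076). The B cell genes Cd79a and Ms4a1 stayed at or below 3.71 on all 6 arrays. Genes of antigen presentation had 7 of 21 that rose and 0 that fell, with the class II chaperone H2-DMa at 1.76 ± 0.27, the class II chain H2-Ab1 at 1.54 ± 0.28 and beta-2-microglobulin (B2m) at 1.06 ± 0.21. Of 7 eosinophil genes 0 passed (1 higher and 0 lower at an unadjusted p under 0.05).

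Among matrix genes, chains of the fibrillar collagens I, III and V rose. Of 16 collagens of fibrils and their associates, 5 rose, all 5 kept without any 1 array, and the median was 0.44. Col1a1, the main chain of type I collagen, read 7.29, 7.81 and 6.95 on mock and 10.83, 13.06 and 13.53 on resected arrays. Col3a1 read 10.49, 10.86 and 10.66 and 14.39, 15.56 and 16.14. In both genes resected 1 was the lowest and resected 3 the highest of the resected arrays, and even the lowest lay far above mock (differences 5.12 ± 0.58 and 4.69 ± 0.42). The other rising chains were Col1a2 (4.14 ± 0.42), Col5a2 (2.72 ± 0.42) and Col5a1 (1.79 ± 0.31).

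Enzymes that process and cross-link collagen moved with these chains. Of 16 measured, 6 rose, all kept without any 1 array, and the median was 1.23. The cross-linking oxidase Lox read 4.85, 4.50 and 5.14 on mock and 8.69, 9.10 and 10.19 on resected arrays, with no overlap (4.49 ± 0.35, adjusted p = 1.18e-05). Its relatives Loxl1 (2.19 ± 0.32) and Loxl3 (2.08 ± 0.32), the collagen chaperone Serpinh1 (2.51 ± 0.39) and the procollagen proteinase Bmp1 (1.62 ± 0.31) also rose. Tll1, a proteinase of the same family as Bmp1, was among the largest falls.

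Matricellular glycoproteins, which tune the contact of cells with matrix, had 10 of 18 that rose and 0 that fell (median 1.56). Tnc, found in embryonic and wound matrix, read 3.81, 4.41 and 3.45 on mock and 7.24, 9.37 and 11.78 on resected arrays, a wide spread among resected arrays without overlap with mock, and rose by 5.57 ± 0.78 from below background (adjusted p = 0.000786). Fibronectin (Fn1) rose by 4.86 ± 0.57, Sparc by 3.51 ± 0.31 and the thrombospondins Thbs1 and Thbs2 by 3.12 ± 0.36 and 3.02 ± 0.54. Small proteoglycans and elastic fibre genes had 8 of 16 that rose (5 without mock 3 or resected 3 or with only the 6 arrays compared), including the collagen-binding Aspn (3.36 ± 0.47), the microfibril proteins Mfap5 (3.04 ± 0.56) and Mfap4 (2.43 ± 0.36), Bgn (1.81 ± 0.32) and Lum (1.39 ± 0.28). Dcn, a proteoglycan and fibroblast marker, did not pass (0.66 ± 0.27, adjusted p = 0.203).

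Proteases and their inhibitors had 10 of 25 that rose and 0 that fell (6 without mock 1 or mock 3 or with only the 6 arrays compared and 5 without resected 3). Timp1, an inhibitor of metalloproteinases, read 3.81, 3.28 and 3.55 on mock and 9.16, 9.82 and 11.04 on resected arrays, a step from below background to a well measured level (6.46 ± 0.37, adjusted p = 1.32e-06). The macrophage elastase Mmp12 read 6.42, 5.33 and 4.41 and 10.72, 10.30 and 11.59 (5.48 ± 0.45), and Mmp14 (2.61 ± 0.37), Mmp3 (2.56 ± 0.35) and Mmp2 (2.07 ± 0.34) rose as well. Fibroblast and pericyte genes had 7 of 15 that rose, among them vimentin (Vim, 3.02 ± 0.40), Thy1 (2.64 ± 0.53) and the mesenchymal factor Prrx1 (2.12 ± 0.31). Basement membrane genes had 1 of 18 that rose, Lama4 (1.10 ± 0.23), against 4.92% over all transcript clusters. The count became 2 without the dimmest 30% of transcript clusters or with robust moderation or with array weights, 5 without resected 1 and 0 without resected 3. Lama4 lost the call without resected 3 (difference 0.89, adjusted p = 0.0597). For integrins 1 of 16 rose, against the same 4.92% (2 without resected 1 or after quantile normalisation or with robust moderation or with a variance trend and 0 without mock 1, mock 3, resected 2 or resected 3 or with only the 6 arrays compared). The rising gene, Itga4 (1.39 ± 0.31), lost the call without mock 1, mock 3, resected 2 or resected 3 (differences 1.08 to 1.37, adjusted p 0.0523 to 0.0848) and with only the 6 arrays compared (adjusted p = 0.0501).

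Among 32 genes of TGF-beta, activin and BMP signalling, which carry signals between cells, 4 rose, against 4.92% over all transcript clusters, of which Tgfb1, the matrix protein Tgfbi (2.38 ± 0.37) and the receptor Tgfbr2 (1.24 ± 0.24) kept the call, and the list's median was 0.00. In the Wnt list 2 of 40 rose, near the 4.92% over all transcript clusters, and the list's median was -0.03. Both were secreted antagonists of the Sfrp family: Sfrp4 read 4.66, 4.85 and 4.16 on mock and 8.91, 8.26 and 9.82 on resected arrays (4.44 ± 0.36), and Sfrp2 differed by 3.70 ± 0.35. Among 23 Notch and Hedgehog genes 1 rose, also near 4.92%, the Notch glycosyltransferase Lfng (1.65 ± 0.20). Of 22 genes of FGF, HGF and MET signalling 0 passed (5 higher and 1 lower at an unadjusted p under 0.05), and 1 rose without mock 2, resected 1 or resected 2, after quantile normalisation or without the dimmest 30% of transcript clusters. Of 16 genes of insulin-like growth factors 2 rose, Igf1 and Igfbp4 (1.24 ± 0.26), the latter lost without resected 2 or resected 3 (differences 1.01 to 1.17, adjusted p 0.0523 to 0.0623).

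Cytoskeletal genes formed a further rising block. Of 24 tubulin and actin remodelling genes, 18 rose and 0 fell (median 1.39, 17 kept). Stmn1, which destabilises microtubules, read 10.70, 10.46 and 8.25 on mock and 12.75, 13.55 and 13 on resected arrays (3.30 ± 0.51). The tubulins Tubb5 (2.71 ± 0.36) and Tubb6 (2.06 ± 0.34), the actin bundler Fscn1 (2.85 ± 0.48) and the membrane linker Msn (1.98 ± 0.35) rose too. Tubulin genes are similar in sequence, so part of one gene's signal may come from another, which was not tested.

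Genes of cell death had 9 of 27 that rose and 0 that fell, against 4.92% and 1.36% over all transcript clusters. The rises became 5 without mock 2 or mock 3, 3 without resected 2 and 4 without resected 3. The executor of necroptosis Mlkl (2.12 ± 0.21), the survival gene Bcl2a1b (1.74 ± 0.25) and Casp4 kept the call in every fit. Epithelial stress and wound-edge genes had 4 of 19 that rose, with the annexins Anxa2 (2.49 ± 0.38) and Anxa3 (1.89 ± 0.32) and the annexin partner S100a10 (1.63 ± 0.32) kept in every fit, and 1 that fell, the cornified envelope protein Sprr1b (-1.31 ± 0.31), which lost the call without mock 1, mock 2, resected 1 or resected 3 (differences -1.35 to -1.03, adjusted p 0.0533 to 0.0973). Antioxidant genes had 5 of 32 that rose (3 without mock 1 or mock 3 and 2 without resected 2), of which extracellular superoxide dismutase Sod3 (2.27 ± 0.29) and the epithelial glutathione peroxidase Gpx2 (1.87 ± 0.29) kept the call, and 1 that fell, the glutathione transferase Gstm1 (-1.0 ± 0.22), which lost the call without mock 1, resected 2 or resected 3 (differences -0.99 to -0.80, adjusted p 0.0536 to 0.0617). In the glycolysis and hypoxia list 6 of 24 rose (2 without mock 2 or with only the 6 arrays compared, 1 without mock 1 or resected 3 and 3 without mock 3 or resected 2), and the lactate exporter Slc16a3 (2.51 ± 0.34) kept the call. In the same list 1 gene fell, Vegfa (-1.27 ± 0.27), which lost the call without mock 2 or resected 2 (differences -1.16 to -1.06, adjusted p 0.0548 to 0.0595).

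The falling side held products of the granular convoluted tubule. Of 15 measured, 9 fell and 0 rose, with a median difference of -1.39, against 1.36% of all transcript clusters that fell. Egf, the growth factor stored in the granules, read 14.10, 15.98 and 14.66 on mock arrays and 12.00, 12.45 and 11.48 on resected arrays. Every resected array lay below every mock array, the closest pair being mock 1 and resected 2, and the difference was -2.94 ± 0.59 (adjusted p = 0.00917). The call of Egf was lost without resected 3 (difference -2.69, adjusted p = 0.0531).

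The kallikreins of this tubule are encoded by a cluster of near copies on chromosome 7. The 100 bases before the RefSeq start sites (build GRCm38.p6, all on the plus strand) are given for Klk1b27 at chr7:44052190-44052289, Klk1b21 at chr7:44102192-44102291 and Klk1b16 at chr7:44137190-44137289. Capitals mark the longest run that all 3 share, 24 bases, which sits at different distances from the annotated starts. Identity was counted over the whole alignment, gaps included, of the 250 bases before each annotated start. An offset between the annotated starts therefore lowers it, and the size of that part was not tested. On this measure Klk1b27 and Klk1b21 were 76.8% identical, Klk1b27 and Klk1b16 71.9%, and Klk1b21 and Klk1b16 59.2%. Against the more distant Klk1, Klk1b27 was 47.6%, Klk1b21 56.2% and Klk1b16 39.1% identical.
Klk1b27: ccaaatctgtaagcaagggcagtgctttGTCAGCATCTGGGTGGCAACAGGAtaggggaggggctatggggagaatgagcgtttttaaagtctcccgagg
Klk1b21: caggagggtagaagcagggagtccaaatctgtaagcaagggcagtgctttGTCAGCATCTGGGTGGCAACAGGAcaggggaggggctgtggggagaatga
Klk1b16: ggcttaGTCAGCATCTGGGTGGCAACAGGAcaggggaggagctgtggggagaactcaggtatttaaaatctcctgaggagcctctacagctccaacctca

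Klk1b27 read 14.15, 15.02 and 13.98 on mock arrays and 12.44, 12.65 and 11.19 on resected arrays, and Klk1b21 read 18.10, 18.82 and 18.04 and 16.80, 16.96 and 15.65. Klk1b24 read 17.59, 17.67 and 17.12 and 16.34, 16.34 and 15.47. In these 3 genes no resected array reached the lowest mock array, resected 3 was the lowest of all, and the calls were kept without any 1 array (differences -2.29 ± 0.44, -1.85 ± 0.36 and -1.41 ± 0.29; adjusted p = 0.00661, 0.00685 and 0.0093). Klk1b16 fell more, from 16.90, 18.49 and 17.41 to 15.22, 16.08 and 13.88, but varied more among arrays (-2.54 ± 0.60). Its call was lost without mock 2, mock 3, resected 1 or resected 3 (differences -2.63 to -1.95, adjusted p 0.0522 to 0.113).

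Klk1b8 fell by 1.97 ± 0.49 and lost the call without mock 2, mock 3, resected 1 or resected 3 (differences -2.10 to -1.49, adjusted p 0.0511 to 0.137). Esp18, a peptide secreted by exocrine glands, fell from 13.05, 12.78 and 12.57 to 10.79, 10.35 and 11.40 (-1.95 ± 0.43) and lost the call without mock 1 or resected 2 (differences -1.83 to -1.71, adjusted p 0.0614 to 0.0727). The members Klk1b26, Klk1b22, Klk1b11, Klk1b5 and Klk1 were at the ceiling of 19.93 on every mock array, so any fall in them is a lower bound, and they differed by 0.00 to -0.42 with 0 past the threshold. The count of 9 falling genes became 5 without mock 2 or mock 3 and 4 without resected 3. Probes for such similar genes can read each other's transcripts, which was not tested, so the falls of the kallikreins are not independent of one another.

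**Figure D4:**
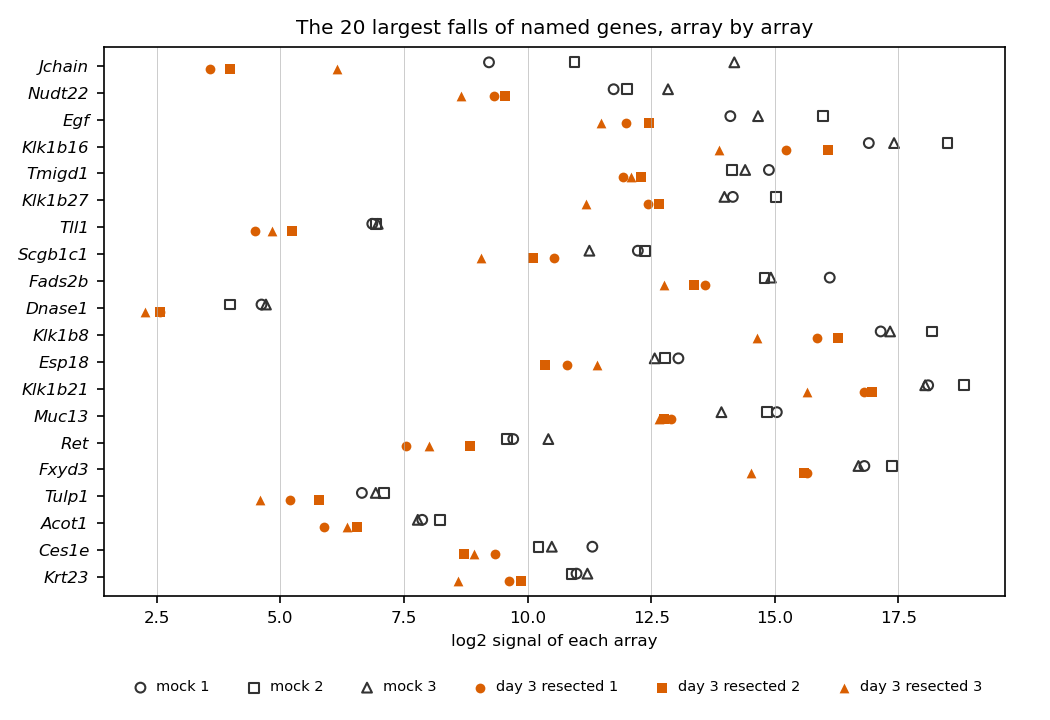
Log2 signal of each array for the 20 genes with the largest fall among genes with a symbol whose groups did not overlap. Open symbols are the 3 mock arrays and filled symbols the 3 resected arrays, with the same shape for the same replicate number. Jchain spans 9.22 to 14.18 among mock arrays, while Tll1 and Tmigd1 are tight in both groups.

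Jchain, the joining chain of secreted polymeric antibodies, had the largest fall of all. It read 9.22, 10.95 and 14.18 on mock arrays and 3.57, 3.98 and 6.15 on resected arrays, a difference of -6.88 ± 1.60 (adjusted p = 0.0208). The groups did not overlap, but the mock arrays alone spanned 9.22 to 14.18, and the call was lost without mock 2, mock 3, resected 1 or resected 2 (differences -7.13 to -5.51, adjusted p 0.0547 to 0.0838) and with robust moderation (adjusted p = 0.17). Other plasma cell genes were near or below background in both groups: Mzb1 read 4.03, 3.23 and 3.52 and 3.28, 2.85 and 3.57, and the plasma cell receptor Tnfrsf17 stayed at or below 3.51. Derl3, shared by plasma cells and secretory epithelium, did not pass (-0.78 ± 0.29, adjusted p = 0.149).

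Other large falls were those of Nudt22, Tmigd1 and Tll1. Nudt22, a hydrolase of UDP-sugars, read 11.74, 12.01 and 12.84 on mock and 9.32, 9.55 and 8.66 on resected arrays (-3.02 ± 0.30, adjusted p = 6.91e-05). Tmigd1, an adhesion protein of epithelial cells, read 14.88, 14.13 and 14.40 and 11.92, 12.29 and 12.10 (-2.37 ± 0.28, adjusted p = 0.000268). Tll1 read 6.86, 6.94 and 6.97 and 4.49, 5.24 and 4.84 (-2.07 ± 0.22, adjusted p = 0.000122). These 3 genes had gaps between the groups that exceeded the range within either group, and each kept its call without any 1 array.

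Among secreted and surface proteins of epithelium, the secretoglobin Scgb1c1 (-2.06 ± 0.37), the membrane mucin Muc13 (-1.83 ± 0.33) and the keratin Krt23 (-1.67 ± 0.30) fell. Muc13 read 15.04, 14.84 and 13.92 on mock and 12.90, 12.75 and 12.65 on resected arrays, where the 3 values nearly coincided. Ret, the receptor for ligands of the GDNF family that guide autonomic nerves, read 9.71, 9.58 and 10.42 and 7.54, 8.83 and 8.0 (-1.78 ± 0.34, adjusted p = 0.00636), with all resected arrays below mock. Of 24 genes of nerve and Schwann cells 0 passed (0 higher and 6 lower at an unadjusted p under 0.05), and 1 fell without mock 1, after either rescaling or with only the 6 arrays compared.

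The remaining large falls included 3 genes of enzymes that act on lipids, a grouping made after the values were seen. The desaturase family member Fads2b read 16.11, 14.79 and 14.92 on mock and 13.59, 13.37 and 12.75 on resected arrays (-2.04 ± 0.34, adjusted p = 0.00282). The acyl-CoA thioesterase Acot1 (-1.70 ± 0.24) and the carboxylesterase Ces1e (-1.67 ± 0.29) fell too. The tubby family gene Tulp1 fell by 1.70 ± 0.31. All 4 kept the call without any 1 array.

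Of 20 serous acinar products 3 fell and 1 rose, against 1.36% and 4.92% over all transcript clusters. The falls became 1 without resected 3 and the rises 2 without resected 2 or after median centring or without the dimmest 30% of transcript clusters or with a variance trend. Of the 20 genes, 5 stood at the maximum throughout (Prol1, Pip, Car6, Scgb1b27 and Scgb2b27), where no fall can show. Dnase1, the nuclease of saliva, read 4.62, 3.99 and 4.71 on mock and 2.56, 2.57 and 2.26 on resected arrays, which is near or below background throughout (-1.98 ± 0.25, adjusted p = 0.000391). Amylase (Amy1) fell by 1.49 ± 0.31 and lost the call without resected 3 (difference -1.31, adjusted p = 0.0624). Azgp1, a secreted lipid-binding glycoprotein, fell by 1.23 ± 0.26 and lost the call without resected 3 (difference -1.10, adjusted p = 0.0609). The lysozyme Lyz1 rose by 2.44 ± 0.30, in parallel with its neighbour and near copy Lyz2, and the share of its signal that comes from Lyz2 was not tested.

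Of 21 fluid secretion genes 1 fell, against 1.36% over all transcript clusters. This was the cotransporter Slc12a2 that loads acinar cells with chloride. It read 19.06, 18.78 and 18.80 on mock and 17.71, 17.98 and 17.50 on resected arrays (-1.15 ± 0.24, adjusted p = 0.0108) and lost the call without resected 3 (difference -1.03, adjusted p = 0.0597). The chloride channel Ano1 (0.17 ± 0.33), the potassium channel Kcnn4 (-0.31 ± 0.33) and the muscarinic receptor Chrm3 (-0.65 ± 0.30) did not pass. Dcpp3, a product of mucous and some serous cells used here as a marker of sublingual mucous cells, varied widely among the resected arrays. It read 6.28, 8.17 and 5.80 on mock and 16.70, 7.80 and 19.69 on resected arrays, so that resected 2 lay within the mock range while the other resected arrays were far above it, and it did not pass (adjusted p = 0.0563).

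Ductal ion transport had 3 of 29 genes that fell and 0 that rose, against 1.36% and 4.92% over all transcript clusters. All 3 falls were kept without any 1 array, and 5 genes fell without mock 3 or after quantile normalisation or after median centring. Fxyd3, a regulator of the sodium pump, read 16.81, 17.37 and 16.69 on mock and 15.65, 15.59 and 14.51 on resected arrays (-1.71 ± 0.33, adjusted p = 0.00666). Scnn1g, the gamma chain of the epithelial sodium channel through which ducts take up sodium, read 10.42, 9.63 and 9.83 and 8.76, 8.66 and 8.09 (-1.46 ± 0.27, adjusted p = 0.00521). Atp6v1c2, a proton pump subunit, fell by 1.40 ± 0.27. The beta chain Scnn1b (-1.01 ± 0.31, adjusted p = 0.0769) and the kinase Sgk1, which keeps the channel at the membrane (-1.13 ± 0.31, adjusted p = 0.0539), did not pass although their groups did not overlap. The alpha chain Scnn1a was at -0.24 ± 0.30 with overlapping groups. The duct keratin Krt7 was bright on every array and differed by -0.07 ± 0.20, and the ionocyte factor Ascl3 by -0.63 ± 0.36, neither past the threshold.

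Genes of regulated secretion had 4 of 19 members that fell and 0 that rose, against 1.36% over all transcript clusters (2 without mock 1, mock 3 or resected 2 and 0 without resected 3). They were the granule adaptor Sytl1 (-1.29 ± 0.32), the priming factor Unc13b (-1.13 ± 0.24), the vesicle SNARE Vamp8 (-1.02 ± 0.24) and the carrier protein Scamp1 (-0.96 ± 0.22). Each of them lost the call in at least 1 fit: Sytl1 without mock 1, mock 3, resected 2 or resected 3 (differences -1.31 to -1.11, adjusted p 0.0904 to 0.125), Unc13b without resected 3 (difference -0.94, adjusted p = 0.0695), Vamp8 without mock 1, mock 2, resected 1 or resected 3 (differences -1.01 to -0.88, adjusted p 0.0635 to 0.104) and with only the 6 arrays compared (adjusted p = 0.0521) and Scamp1 without mock 3, resected 2 or resected 3 (differences -1.0 to -0.82, adjusted p 0.0551 to 0.102). In the secretory pathway and ER folding list 1 of 34 fell, Herpud1 (-0.89 ± 0.24), which lost the call without mock 1, mock 2, mock 3, resected 1, resected 2 or resected 3 (differences -1.01 to -0.73, adjusted p 0.0535 to 0.156) and with only the 6 arrays compared (adjusted p = 0.0507). Of 27 glycosylation genes 0 fell (1 without mock 1, after either rescaling or without the dimmest 30% of transcript clusters) and 2 rose, against 1.36% and 4.92% over all transcript clusters. The rising genes were the sugar transferases Gcnt1 (1.23 ± 0.28) and B3gnt3 (0.81 ± 0.21). Gcnt1 lost the call without mock 1, resected 2 or resected 3 (differences 1.00 to 1.25, adjusted p 0.052 to 0.0897), and B3gnt3 lost it without mock 1, mock 2, mock 3, resected 1, resected 2 or resected 3 (differences 0.73 to 0.88, adjusted p 0.0505 to 0.112), after median centring (adjusted p = 0.0579), with a variance trend (adjusted p = 0.0647) and with only the 6 arrays compared (adjusted p = 0.0524).

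Claudins and junction genes had 3 of 25 that fell (0 without mock 1 or resected 3 or with only the 6 arrays compared and 1 without mock 2) and 1 that rose, against 1.36% and 4.92% over all transcript clusters. The falling genes were the claudins Cldn8 (-1.21 ± 0.28), Cldn3 (-0.95 ± 0.26) and Cldn10 (-0.81 ± 0.20), which set the ion selectivity of tight junctions. Cldn8 lost the call without mock 1 or resected 3 (differences -0.97 to -0.94, adjusted p 0.0813 to 0.103) and with only the 6 arrays compared (adjusted p = 0.0581), Cldn3 without mock 1, mock 2, mock 3, resected 2 or resected 3 (differences -1.04 to -0.71, adjusted p 0.0702 to 0.194) and with only the 6 arrays compared (adjusted p = 0.0963) and Cldn10 without mock 1, mock 2, resected 1 or resected 3 (differences -0.80 to -0.72, adjusted p 0.0856 to 0.108) and with only the 6 arrays compared (adjusted p = 0.0657). The gap junction gene Gja1 read 7.82, 6.75 and 7.08 on mock and 8.74, 8.73 and 9.16 on resected arrays and rose by 1.66 ± 0.29 (adjusted p = 0.00333), a call kept in every fit without 1 array. In the keratin list Krt10, which read 5.48, 5.28 and 4.75 on mock and 4.43, 4.17 and 3.76 on resected arrays, fell by 1.05 ± 0.25 and lost the call without mock 1, mock 2, resected 2 or resected 3 (differences -1.08 to -0.87, adjusted p 0.0647 to 0.117) and with only the 6 arrays compared (adjusted p = 0.0597). Krt19 rose by 1.04 ± 0.27 from below background and lost the call without mock 2, mock 3, resected 2 or resected 3 (differences 0.84 to 1.12, adjusted p 0.0612 to 0.153) and with only the 6 arrays compared (adjusted p = 0.0843).

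Transcription factors of the salivary lineage had 3 of 26 that fell (6 after quantile normalisation, 1 without resected 1 or with only the 6 arrays compared, 5 with a variance trend and 0 without mock 2, mock 3, resected 2 or resected 3) and 1 that rose, against 1.36% and 4.92% over all transcript clusters. Bhlha15 (MIST1), which drives the secretory state of acinar cells, read 13.78, 14.01 and 14.62 on mock and 13.54, 12.65 and 12.65 on resected arrays. The groups touched without overlapping, the difference was -1.19 ± 0.31, and the call was lost without mock 2, mock 3, resected 2 or resected 3 (differences -1.25 to -0.95, adjusted p 0.0743 to 0.161) and with only the 6 arrays compared (adjusted p = 0.0697). The oestrogen-related receptor Esrrg differed by -1.09 ± 0.29 and lost the call without mock 1, mock 2, mock 3, resected 1, resected 2 or resected 3 (differences -1.20 to -0.99, adjusted p 0.0695 to 0.164) and with array weights (adjusted p = 0.0548), and Pax9 by -0.82 ± 0.22, lost without mock 1, mock 2, mock 3, resected 1, resected 2 or resected 3 (differences -0.93 to -0.69, adjusted p 0.0524 to 0.193), with a variance trend (adjusted p = 0.0586) and with only the 6 arrays compared (adjusted p = 0.0772). Etv5, a transcription factor induced by FGF signals, rose from 8.21, 7.85 and 8.84 to 10.24, 10.09 and 9.67 (1.70 ± 0.31, adjusted p = 0.00479) and kept its call.

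Among receptors and growth factors, Erbb4, Ghr and Vegfa fell. Erbb4, a receptor of the EGF family, read 7.13, 7.02 and 7.07 on mock and 6.26, 6.07 and 5.48 on resected arrays (-1.14 ± 0.24) and was the only one of 14 genes of that family and its ligands, Egf being counted with the tubule products, that passed. It lost the call without resected 3 (difference -0.91, adjusted p = 0.0545). The growth hormone receptor Ghr fell by 1.10 ± 0.24 and lost the call without mock 1 or resected 3 (differences -0.96 to -0.93, adjusted p 0.0582 to 0.0723). Vegfa, the main growth factor of vessels, fell by 1.27 ± 0.27 from 11.11, 11.88 and 11.37 to 9.98, 9.98 and 10.60 and lost the call without mock 2 or resected 2 (differences -1.16 to -1.06, adjusted p 0.0548 to 0.0595). In the endothelium list 4 of 28 rose (2 without resected 2 and 1 without resected 3), against 4.92% over all transcript clusters. Of these the receptor Nrp2 (2.43 ± 0.38) kept the call, while Pecam1, Cdh5 and Emcn did not pass (0.57, 0.79 and 0.52).

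The list of immediate early genes holds genes that respond within minutes to growth signals or handling. Of its 26 genes 0 rose and 1 fell (3 without mock 1), against 4.92% and 1.36% over all transcript clusters. At an unadjusted p under 0.05, 1 was higher and 6 were lower, and the list's median was -0.19. The falling gene was the antiproliferative gene Btg2. Btg2 read 8.60, 9.67 and 9.25 on mock and 7.90, 7.95 and 7.70 on resected arrays (-1.32 ± 0.26, adjusted p = 0.00696) and kept its call without any 1 array. Of 20 clock genes 1 rose, near the 4.92% over all transcript clusters, and the list's median was -0.26. The rising gene was the mitotic kinase Wee1 (1.80 ± 0.46), which lost the call without resected 1, resected 2 or resected 3 (differences 1.64 to 1.88, adjusted p 0.0656 to 0.12) and with only the 6 arrays compared (adjusted p = 0.0873).

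Among metabolic genes, oxidative phosphorylation had 1 of 32 that fell, against 1.36% over all transcript clusters. The count became 2 without resected 2 or after quantile normalisation or after median centring and 0 without mock 2 or resected 1. The falling gene, Ndufa1 (-0.93 ± 0.21), lost the call without mock 2 or resected 1 (differences -0.86 to -0.79, adjusted p 0.0548 to 0.0622). The citrate cycle and fatty acid oxidation list had 2 of 28 that fell, Esrrg and the oxidation enzyme Hadhb (-0.89 ± 0.23), the latter lost without mock 1, mock 2, resected 1, resected 2 or resected 3 (differences -0.92 to -0.72, adjusted p 0.0915 to 0.132) and with only the 6 arrays compared (adjusted p = 0.081). The medians of both lists were below 0, at -0.20 and -0.36, against -0.065 over all transcript clusters. Cholesterol and fatty acid synthesis had 1 of 26 that rose (2 without mock 1, resected 1 or resected 3, 3 without mock 3 and 0 without resected 2), against 4.92% over all transcript clusters, and 0 that fell (1 lower at an unadjusted p under 0.05). The rising gene, the elongase Elovl5 (1.30 ± 0.27), lost the call without resected 2 (difference 1.19, adjusted p = 0.0544). Amino acid transport and synthesis had 4 of 26 that rose, of which the transporter Slc38a4 (1.77 ± 0.31) kept the call.

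**Figure D5:**
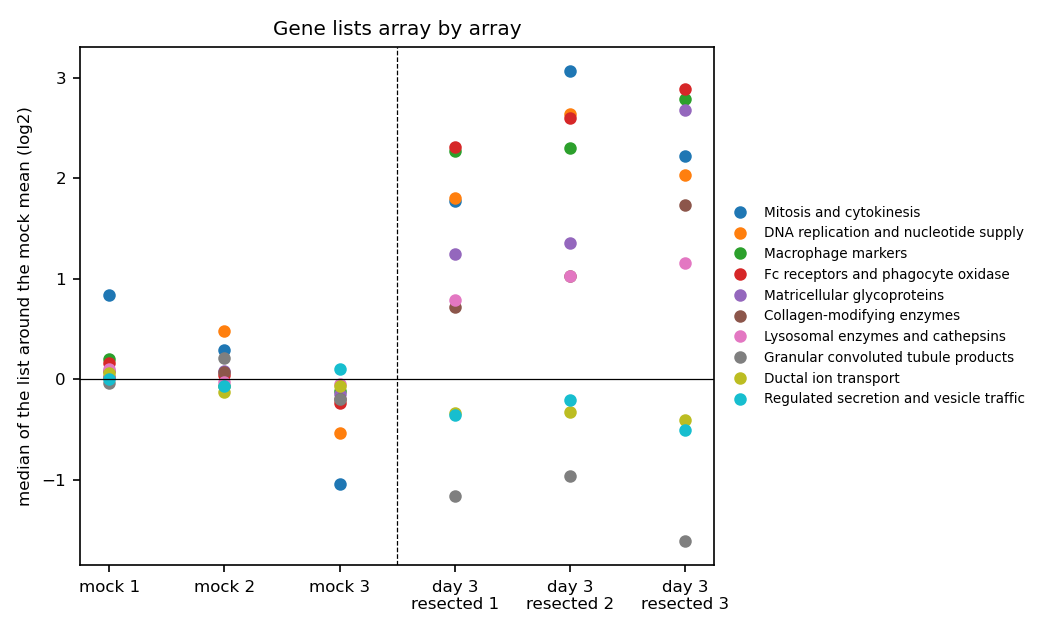
Each point is the median of a gene list on 1 array after the mock mean of each gene was subtracted (log2), with the 3 mock arrays on the left and the 3 resected arrays on the right of the dashed line. Mitosis genes spread from -1.04 to 0.84 among mock arrays and lie at 1.77 to 3.07 on resected arrays, and granular tubule products lie below 0 on every resected array.

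The last lists hold markers of tissue that could have come along in dissection and of contractile cells. Of 11 adipocyte genes 0 rose and 1 fell (2 without mock 1), the lipid droplet protein Cidea (-0.84 ± 0.22), which was near or below background on every array and lost the call without mock 2, mock 3, resected 1, resected 2 or resected 3 (differences -0.88 to -0.65, adjusted p 0.0828 to 0.148), with only the 6 arrays compared (adjusted p = 0.0823) and after quantile normalisation (adjusted p = 0.0748). Of 14 skeletal muscle genes 0 passed (0 higher and 0 lower at an unadjusted p under 0.05). The defining adipocyte gene Adipoq read 7.12, 4.65 and 6.13 on mock and 5.98, 4.81 and 7.51 on resected arrays. The muscle genes Acta1, Myh4 and Mylpf stayed at or below 3.73 on all arrays. Of 10 lymph node stroma genes 1 rose, Cxcl13, while Ccl21a did not pass (0.75 ± 0.34) and Glycam1 was at 2.60 to 2.87 on all arrays. Of 8 genes of sublingual mucous cells 0 passed (1 higher and 2 lower at an unadjusted p under 0.05), and 1 rose without resected 2 and 1 fell without mock 1. Dcpp3, a marker of these cells described above with the fluid secretion genes, was far above the mock range on resected 1 and resected 3. On resected 2 it was within that range. Whether sublingual tissue came along in some resected samples was not tested. Myoepithelial and smooth muscle genes had 1 of 17 that rose (2 without resected 1) and 1 that fell (2 without mock 3), against 4.92% and 1.36% over all transcript clusters. The calponin Cnn2 rose (1.52 ± 0.23, kept without any 1 array) and the smooth muscle myosin Myh11 fell (-1.07 ± 0.26). Myh11 lost the call without mock 1, mock 2, resected 1 or resected 3 (differences -1.13 to -0.91, adjusted p 0.0557 to 0.111). The markers Acta2 (0.31 ± 0.29), Krt5 (0.71 ± 0.33), Krt14 (0.33 ± 0.29) and Trp63 (0.09 ± 0.21) did not pass.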

How the data were processed

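RNA of 9 salivary glands was measured by the authors on Clariom S arrays. The deposited values are log2 signals made with Transcriptome Analysis Console 4.0 and RMA, per the labels and the submitters' processing notes. RMA corrects for background, makes the arrays' distributions alike and combines the probes of a transcript cluster. Genome build and annotation: not given in the sources used here. The table has no detection calls, and 327 transcript clusters exceeded 16 on at least 1 of the 6 arrays, so a log2 difference is not a calibrated fold change.

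Of 28846 rows, 6640 controls were left out. Each remaining transcript cluster was tested with limma 3.58.1 in R 4.3.3 on all 9 arrays, with a mean per group and empirical Bayes variances (6 residual and 6.63 prior degrees of freedom). Two-sided p-values were adjusted (Benjamini-Hochberg) over all 22206 transcript clusters. The method was tested on simulated data. The number of arrays limits the precision, and the replicates are the labels' biological replicates.

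Symbols are RefSeq names found through the platform's Entrez identifiers, which left 2634 transcript clusters without a symbol, and 55 symbols had more than 1 transcript cluster. The 69 gene lists hold 1556 genes, 1428 of them measured, each by the transcript cluster with the highest mean over all 9 arrays. Members and lists were chosen with earlier results of these data known, so counts are descriptions beside those over all transcript clusters, without a test of the list. Named genes were the 20 largest rises and 20 largest falls past the threshold without overlap of the groups and with a symbol that is not predicted, up to 5 called members of each list (those kept in all 6 fits without 1 array before others), and the cell type markers. Other list members are given with values only. Promoters are RefSeq windows of GRCm38.p6, searched on both strands for 7 motifs. Alternatives were quantile normalisation, median centring, a filter on the dimmest 30% of transcript clusters, only the 6 arrays compared, the replicate number as a block, robust moderation, array weights, a variance trend and leaving out each array.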

Additional observations from a re-analysis of the deposited data

Results flagged for a closer look

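The negative control rows, which no comparison of genes uses, were brighter on the resected arrays. The median of 5222 rows was 4.44, 4.41 and 4.52 on mock 1, 2 and 3 and 4.65, 4.77 and 4.69 on resected 1, 2 and 3, a difference of 0.247. Every resected array lay above every mock array. The exact permutation test over arrays gave a two-sided p of 0.1, the smallest possible with 3 against 3. Of the 1092 rising transcript clusters, 250 had a mock mean under 5, near this background, and of the 301 falling ones 61 had a resected mean under 5. The part of the background in these calls was not tested.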

How the results depend on the processing

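The total of 1393 calls stayed between 1090 and 1493 under the settings that keep all 9 arrays or drop the 14-day group, and the 1092 higher calls between 900 and 1145. The 301 lower calls became 452 after quantile normalisation, 480 after median centring and 190 with only the 6 arrays compared. Leaving out 1 array gave 850 to 1295 calls in all, 744 to 1082 higher and 106 to 246 lower, and the fewest came without resected 3. The difference of the negative controls was 0.214 to 0.279 without 1 array. Arrays with the same replicate number did not deviate together (correlations of deviations from the group mean -0.077, -0.007 and -0.046), so the numbers do not pair the arrays, and the fit with the replicate number as a block gave 1283 calls, 1038 higher and 245 lower. The lost calls given above for single genes and lists leave that block out. Of 271 named results, 12 lost the call under that block, 24 with only the 6 arrays compared, and 23 to 56 without 1 array, most without resected 3. Among these named results no direction of a called gene was reversed under these settings. The cause of these shifts was not tested. Genes at the array maximum and genes near background limit what could be measured.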

Other observations

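Of 24 measured genes of the breakdown of the branched-chain amino acids leucine, isoleucine and valine, a list written after the values were seen and therefore without a test, 9 fell and 1 rose, against 1.36% and 4.92% over all transcript clusters. The median difference was -0.69 and 22 lay below 0. The falling genes run from the mitochondrial aminotransferase Bcat2 (-1.17 ± 0.22) over the dehydrogenase subunits Dbt (-1.46 ± 0.29), Bckdhb (-1.02 ± 0.21) and Bckdha (-1.39 ± 0.29) to Aldh6a1 (-1.28 ± 0.23) and the propionyl-CoA carboxylase chain Pcca (-1.61 ± 0.23). Pcca read 11.75, 11.53 and 11.34 on mock and 10.22, 9.70 and 9.86 on resected arrays, with no overlap. The cytosolic aminotransferase Bcat1 went the other way (1.45 ± 0.38). Calls were kept without any 1 array for 5 of the 9 falling genes, and not for Bcat1 or Bckdha. Bcat1 lost the call without mock 1, mock 2, mock 3, resected 2 or resected 3 (differences 1.02 to 1.55, adjusted p 0.0758 to 0.15), with only the 6 arrays compared (adjusted p = 0.0969) and after quantile normalisation (adjusted p = 0.0601), and Bckdha without mock 1 or resected 3 (differences -1.26 to -1.06, adjusted p 0.0527 to 0.054).

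The histone genes of the H1, H2A, H2B, H3 and H4 clusters, which package DNA, were again chosen after the values were seen. Of 54 measured, 39 rose and 1 fell, against 4.92% and 1.36% over all transcript clusters, with a median of 1.96. H2ac8 rose by 3.15 ± 0.23 and H1f5 by 2.28 ± 0.27, while the linker histone H1f2 fell from 9.07, 8.97 and 9.91 to 7.88, 7.46 and 7.91 (-1.57 ± 0.29) and kept its call. Histone genes are near copies of one another, so their signals are not independent. The Ms4a family of membrane proteins was also chosen after the values were seen. Of 18 measured genes 7 rose and 0 fell, against the same shares, led by Ms4a6d (4.58 ± 0.39) and Ms4a4c (4.22 ± 0.42).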
